A study of Arabidopsis thaliana with 9 samples.

Results

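A set of 9 genes around the brassinosteroid-linked basic helix-loop-helix (bHLH) growth circuit of Arabidopsis thaliana were followed across all 9 arrays of a leaf-size study. They were chosen by locus from a list, BEE1 (AT1G18400), BEE2 (AT4G36540), BEE3 (AT1G73830), HBI1 (AT2G18300), PRE1 (AT5G39860), IBH1 (AT2G43060), PAR1 (AT2G42870), SAUR15 (AT4G38850) and KCS1 (AT1G01120), and all 9 were among the 20777 loci measured. RNA came from the vegetative part of seedlings at growth stage 1.03, raised on MS plates (16 h light, 8 h dark, 22 °C), and was hybridized to Affymetrix ATH1 arrays. There were 3 genotypes with 3 biological repeats each, all in the Col-0 ecotype: a line carrying extra BRI1, a line labelled 35S::AVP1, and untransformed wild type. For the line with extra BRI1, the genotype entry names BRI1's own promoter (pBRI1::BRI1) and the source name names the 35S promoter, so the promoter is not settled and it is called the BRI1 line. The 35S promoter of cauliflower mosaic virus drives expression in most plant tissues. The labels do not say whether each line is 1 transformant or how many plants made up a repeat. The design text also mentions a GRF5 line, but none of the 9 arrays is labelled as that line.

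Brassinosteroids are steroid hormones that promote cell expansion. They bind the receptor kinase BRI1 at the cell surface, and the signal ends in the transcription factors BZR1 and BES1, which switch growth genes on or off. A layer of helix-loop-helix proteins then sets the response by pairing with one another. BEE1, BEE2, BEE3 and HBI1 are DNA-binding bHLH factors that promote growth. IBH1 and PAR1 are helix-loop-helix proteins that do not bind DNA by the usual contacts and restrain growth, IBH1 by pairing with HBI1 and PAR1 by pairing with growth-promoting factors such as PIF4. PRE1, also without DNA binding, pairs with IBH1 and PAR1 and so frees the activators. SAUR15 belongs to a family of small auxin-induced growth proteins, and KCS1 is a condensing enzyme of very-long-chain fatty acid elongation, which supplies wax and sphingolipid chains. The name "brassinosteroid-induced" fits the literature on the BEE genes, PRE1, HBI1 and SAUR15 and not IBH1, which BZR1 is known to repress.

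Values are log2 levels after RMA, on which each unit doubles the signal. The 10th percentile of the arrays lay at 3.71 to 3.79, and every level of the 9 genes was above 5. A gene was called where limma's adjusted p, over all 20777 loci, was under 0.05. BRI1 itself (AT4G39400) averaged 12.28 ± 0.09 in the BRI1 line, 9.75 ± 0.10 in the arrays labelled 35S::AVP1 and 9.55 ± 0.03 in wild type (SD, n = 3 each). AVP1 (AT1G15690) averaged 12.54 ± 0.04 in the arrays labelled 35S::AVP1 and 12.63 ± 0.07 in wild type, so it was not higher where the label says it should be. The 95% interval of that difference was -0.25 to 0.07 (limma adjusted p = 0.489), and results in those arrays are tied here to the label and not to an AVP1 level. Of the tissue markers, the measured shoot genes RCA and PSAD1 averaged 13.65 to 13.83 on every array. In bulk tissue, fewer cells of a type and less RNA per cell cannot be told apart.

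In the BRI1 line against wild type, none of the 9 genes was called. BEE1, BEE3 and SAUR15 had the positive values, of 0.64, 0.42 and 0.52 on the log2 scale, and the other 6 lay between -0.34 and -0.03. The share called was 0 of 9, and over all loci it was 0.0818% (0.0385% higher and 0.0433% lower). At an unadjusted p under 0.05 it was 3 of 9, these same positive ones, against 5.3% of all loci. Levels of the groups did not overlap for BEE1 and SAUR15, that is for 2 of 9 genes, against 10.1% of all loci (4.38% above wild type and 5.75% below it). The median difference of the 9 was -0.10, and that of all loci -0.01.

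For the arrays labelled 35S::AVP1 against wild type, 3 of 9 genes were called, against 11.1% of all loci (6.31% higher and 4.76% lower). The growth repressors IBH1 and PAR1 fell and KCS1 rose. At an unadjusted p under 0.05 the count was 5 of 9, against 24.2% of all loci. PRE1, the partner that binds both repressors, was higher by 0.77 without passing the test. Levels did not overlap for 5 of 9 genes (IBH1, PAR1, KCS1, PRE1 and SAUR15), against 28.4% of all loci (18.8% above wild type and 9.63% below it). The median difference of the 9 was -0.03, and that of all loci 0.05.

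The lines were also set against each other. Between the BRI1 line and the arrays labelled 35S::AVP1, 4 of 9 genes were called, against 10.3% of all loci (4.05% higher and 6.27% lower): BEE1 and PAR1 were higher in the BRI1 line and PRE1 and KCS1 lower. At an unadjusted p under 0.05 the count was 6 of 9, against 23.9% of all loci. Levels did not overlap for 6 of 9 genes, against 30.3% of all loci (9.36% above and 21% below). The median difference of the 9 was 0.22, and that of all loci -0.05. The comparisons share arrays (wild type in the first and second, a line in the third), so their values are given side by side and not counted as separate support.

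**Figure D1:**
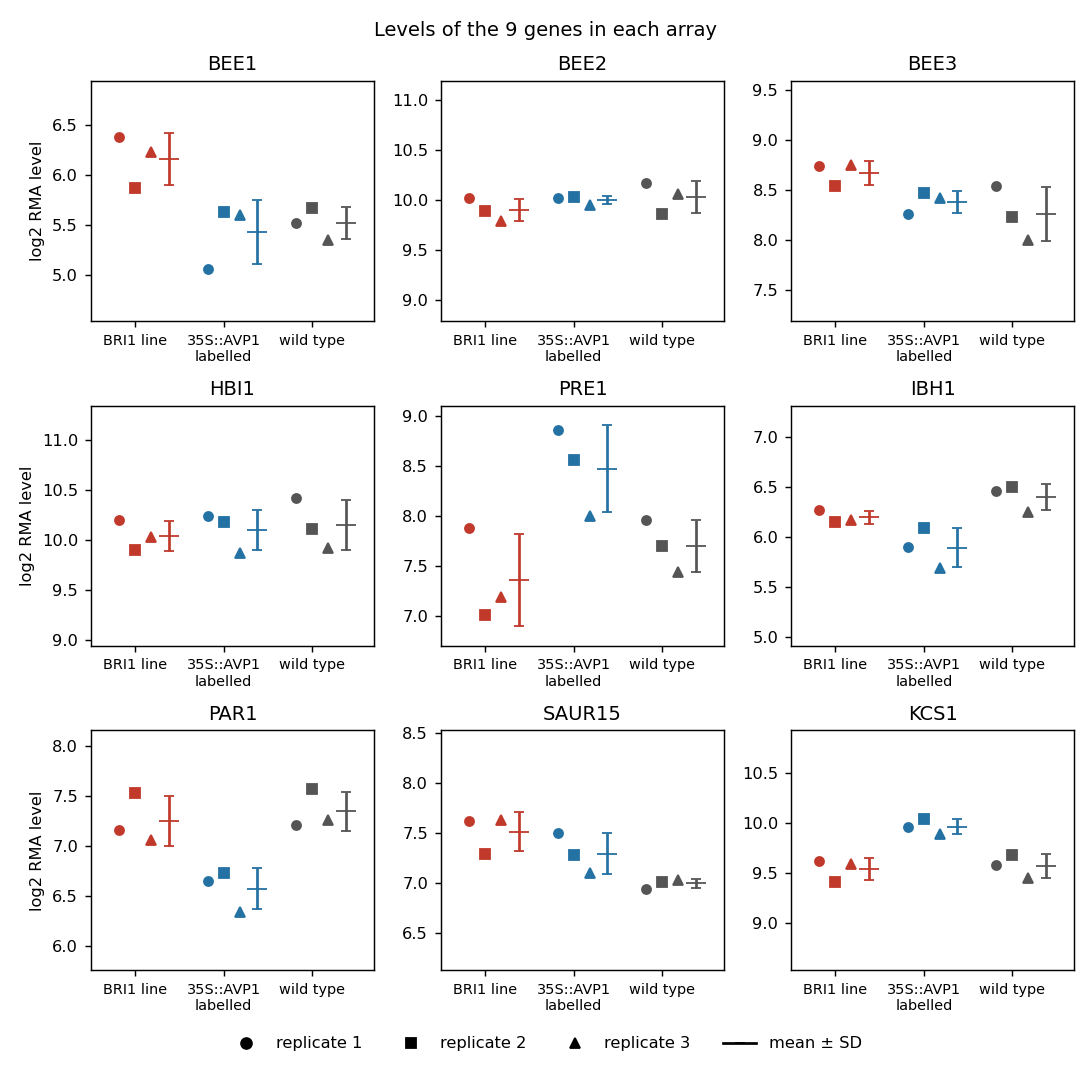
log2 RMA level (vertical axis, each panel spanning 2.4 log2 units) of the 9 genes in the BRI1 line, the arrays labelled 35S::AVP1 and wild type; symbols are the 3 replicates and bars the mean ± SD. BEE1 and SAUR15 lie above wild type in the BRI1 line, and IBH1 and PAR1 lie below it in the arrays labelled 35S::AVP1.

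Among the DNA-binding activators, BEE1 had the largest difference between the BRI1 line and wild type. Its levels were 6.37, 5.87 and 6.23 in the BRI1 line, 5.06, 5.63 and 5.59 in the arrays labelled 35S::AVP1, and 5.52, 5.67 and 5.35 in wild type. All arrays of the BRI1 line lay above all 6 others, which overlapped among themselves. The difference from wild type was 0.64 (SE 0.17, 95% interval 0.26 to 1.02, 1.56-fold), at an unadjusted p of 0.00387 and a limma adjusted p of 0.543. Against the arrays labelled 35S::AVP1 BEE1 was called, at 0.73 (95% interval 0.35 to 1.11, 1.66-fold; limma adjusted p = 0.0235). That call was lost without BRI1 line replicate 1 (adjusted p = 0.0869) or replicate 3 (0.0902), or without replicate 1 labelled 35S::AVP1 (0.0632), whose BEE1 level of 5.06 was the lowest of the 9 arrays. For the other line the BEE1 difference from wild type was -0.09 (95% interval -0.47 to 0.30).

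BEE3, which acts redundantly with BEE1 and BEE2, gave 8.74, 8.54 and 8.76 in the BRI1 line, 8.26, 8.47 and 8.42 in the arrays labelled 35S::AVP1, and 8.54, 8.24 and 8.00 in wild type. The BRI1 line was above the other line on every array but touched wild type, where replicate 1 lay within its range. The difference from wild type was 0.42 (SE 0.13, 95% interval 0.13 to 0.70; limma adjusted p = 0.663), and that from the arrays labelled 35S::AVP1 0.29 (95% interval 0.01 to 0.58; limma adjusted p = 0.197). Neither was called. The arrays labelled 35S::AVP1 stood, for BEE3, 0.12 from wild type (95% interval -0.16 to 0.41).

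BEE2 and HBI1, close homologs of each other, overlapped between the genotypes in every comparison. BEE2 gave 10.02, 9.89 and 9.79 in the BRI1 line, 10.02, 10.03 and 9.95 in the arrays labelled 35S::AVP1, and 10.17, 9.86 and 10.06 in wild type. HBI1 averaged 10.04 ± 0.15 in the BRI1 line, 10.10 ± 0.20 in the arrays labelled 35S::AVP1 and 10.15 ± 0.25 in wild type (SD, n = 3 each). The 95% interval of the difference between the BRI1 line and wild type was -0.33 to 0.07 for BEE2 and -0.42 to 0.21 for HBI1. Between the arrays labelled 35S::AVP1 and wild type it was -0.24 to 0.17 for BEE2 and -0.37 to 0.26 for HBI1. Rises as large as the 0.64 measured for BEE1 lie outside all of these intervals.

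Of the proteins that act by pairing, PRE1 had the widest range, 1.85 over the 9 arrays. Its levels were 7.89, 7.01 and 7.19 in the BRI1 line, 8.86, 8.57 and 8.01 in the arrays labelled 35S::AVP1, and 7.96, 7.71 and 7.45 in wild type. The arrays labelled 35S::AVP1 lay above the other 6 (the lowest of them just above the highest wild type array), and replicate 1 was the highest in each genotype. PRE1 was lower in the BRI1 line than in the arrays labelled 35S::AVP1 by a log2 difference of -1.11 (SE 0.26, 95% interval -1.69 to -0.54, 2.16-fold lower; limma adjusted p = 0.0213). That call was lost without BRI1 line replicate 2 (adjusted p = 0.0751) or replicate 3 (0.0886), or without replicate 1 (0.0785) or replicate 2 (0.0757) labelled 35S::AVP1. Against wild type the arrays labelled 35S::AVP1 were higher by 0.77 (95% interval 0.20 to 1.34, 1.71-fold; limma adjusted p = 0.0895) and were not called. Without replicate 3 of that label the difference was 1.01 (adjusted p = 0.0368), and without BRI1 line replicate 1, which leaves the difference as it was, the adjusted p was 0.0462. With array weights the difference was 0.85 (adjusted p = 0.0446). Without each array in turn it ranged from 0.58 to 1.01, with adjusted p from 0.0368 to 0.255. Under 12 of the 16 alternative settings PRE1 was still not called in this comparison. The BRI1 line stood -0.34 from wild type (95% interval -0.91 to 0.23; limma adjusted p = 0.974). That difference was -0.60 without BRI1 line replicate 1, and -0.17 without BRI1 line replicate 2 and -0.21 without wild type replicate 1.

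IBH1, the repressor that pairs with HBI1, went the other way in the arrays labelled 35S::AVP1. Its levels were 6.27, 6.16 and 6.17 in the BRI1 line, 5.90, 6.09 and 5.70 in the arrays labelled 35S::AVP1, and 6.46, 6.50 and 6.26 in wild type. Wild type was the highest group, the BRI1 line stood between, and the arrays labelled 35S::AVP1 lay below both without overlap. IBH1 fell in them by 0.51 against wild type (SE 0.11, 95% interval -0.75 to -0.27, 1.42-fold lower; limma adjusted p = 0.0122). Without wild type replicate 2, the highest array, the change was -0.46 and the adjusted p 0.0542. The BRI1 line stood -0.21 from wild type (95% interval -0.44 to 0.03; limma adjusted p = 0.950) and 0.30 from the arrays labelled 35S::AVP1 (95% interval 0.07 to 0.54; limma adjusted p = 0.109). All pairs of the 3 genotypes were tested, and only wild type and the arrays labelled 35S::AVP1, the ends of this order, were called apart.

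PAR1, which is induced by shade and limits the elongation that shade provokes, showed the largest fall among the 9 genes in the arrays labelled 35S::AVP1. Its levels were 7.17, 7.54 and 7.06 in the BRI1 line, 6.66, 6.73 and 6.34 in the arrays labelled 35S::AVP1, and 7.22, 7.58 and 7.26 in wild type. The highest array labelled 35S::AVP1 lay below all 6 others, while the BRI1 line and wild type overlapped. Against wild type PAR1 fell by 0.77 (SE 0.15, 95% interval -1.11 to -0.44, 1.71-fold lower; limma adjusted p = 0.00828). It was called under all 16 alternative settings, with adjusted p up to 0.0366. Between the lines PAR1 was higher in the BRI1 line by 0.68 (95% interval 0.35 to 1.01; limma adjusted p = 0.0170), a call lost without BRI1 line replicate 2 (adjusted p = 0.0528) or without replicate 3 labelled 35S::AVP1 (0.0572). The BRI1 line differed from wild type by -0.10 (95% interval -0.43 to 0.24).

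**Figure D2:**
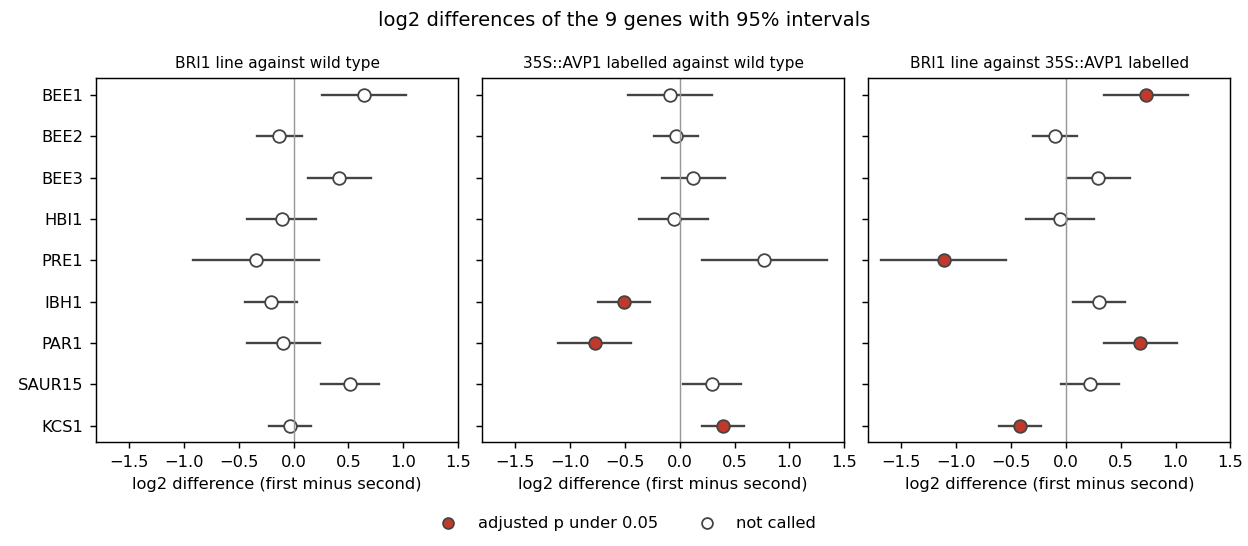
log2 difference (points) with its 95% interval (lines) for the 9 genes in the comparisons of the BRI1 line with wild type, of the arrays labelled 35S::AVP1 with wild type, and of the BRI1 line with the arrays labelled 35S::AVP1; filled points were called by limma. No point is filled in the first panel, 3 in the second and 4 in the third.

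Of the growth outputs, SAUR15 gave 7.62, 7.28 and 7.63 in the BRI1 line, 7.5, 7.28 and 7.09 in the arrays labelled 35S::AVP1, and 6.94, 7.01 and 7.02 in wild type. Every array of both lines lay above every wild type array, and the lines overlapped. The BRI1 line was higher than wild type by 0.52 (SE 0.12, 95% interval 0.25 to 0.78, 1.43-fold), with an unadjusted p of 0.00142 and a limma adjusted p of 0.354. The arrays labelled 35S::AVP1 were higher by 0.30 (95% interval 0.03 to 0.56; limma adjusted p = 0.154). Neither was called, and the lines differed by 0.22 (95% interval -0.04 to 0.48).

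KCS1 was called in both comparisons with the arrays labelled 35S::AVP1. It gave 9.62, 9.42 and 9.59 in the BRI1 line, 9.96, 10.04 and 9.89 in the arrays labelled 35S::AVP1, and 9.58, 9.69 and 9.45 in wild type. The arrays labelled 35S::AVP1 lay above all 6 others, and the BRI1 line and wild type overlapped. KCS1 rose in them by 0.39 against wild type (SE 0.09, 95% interval 0.20 to 0.58, 1.31-fold; limma adjusted p = 0.0161). The call was lost without replicate 2 of that label (0.35, adjusted p = 0.0635) or wild type replicate 3 (0.33, adjusted p = 0.0504). In the BRI1 line KCS1 was lower than in the arrays labelled 35S::AVP1 by a log2 difference of -0.42 (95% interval -0.61 to -0.23; limma adjusted p = 0.0116), a call that narrowly failed without replicate 2 labelled 35S::AVP1 (adjusted p = 0.0505). The BRI1 line and wild type differed by -0.03 (95% interval -0.22 to 0.16).

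All of the 9 genes but KCS1 varied between repeats more than the median locus. The pooled SD within genotypes was 0.39 for PRE1, 0.26 for BEE1, 0.22 for PAR1 and 0.20 for HBI1, against a median of 0.11 over all loci. Its lowest values were 0.10 for KCS1 and 0.11 for BEE2. PRE1 exceeded 97.9% of loci in this spread and BEE1 94.1%, while KCS1 exceeded 43.2%.

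Several of the genes deviated together within a genotype. In the BRI1 line, replicate 2 was the lowest of the 3 arrays for 7 of the 9 genes, with PAR1 its highest. In the arrays labelled 35S::AVP1, replicate 3 was the lowest for 7 of 9, and in wild type replicate 3 was the lowest for 6 of 9. The median deviations of these arrays over the 9 genes were -0.14, -0.20 and -0.15. The array medians over all loci were 6.34, 6.42 and 6.35 for the same arrays, in a range of 6.34 to 6.42 over the series. Over all loci, deviations from the genotype mean correlated at 0.49 between BRI1 line replicate 2 and wild type replicate 3. Replicate 3 labelled 35S::AVP1 correlated with these arrays at 0.17 and 0.28. How many of all loci were lowest on each array was not counted. The part of the array in the deviations of the 9 genes was not tested.

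**Figure D3:**
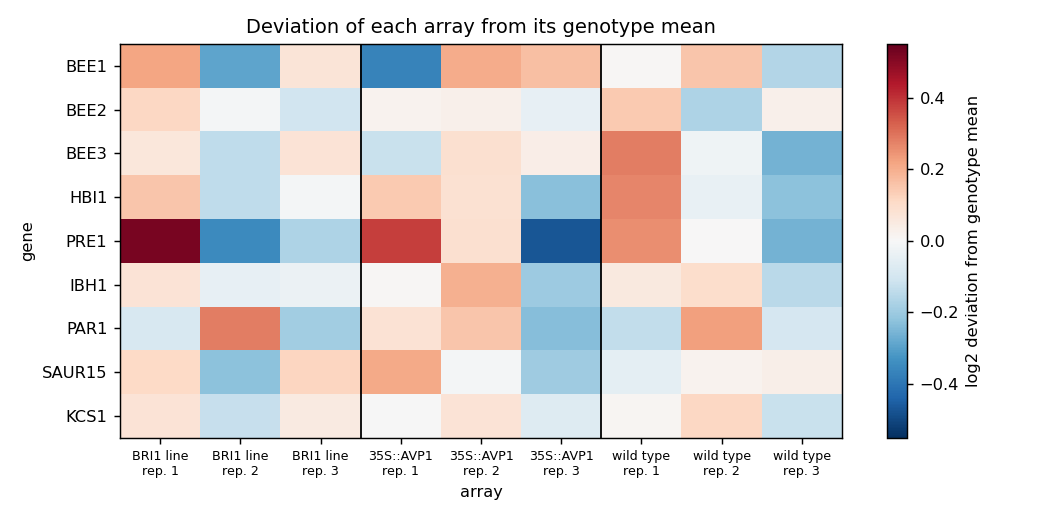
Deviation of each array (columns) from its genotype mean (colour, log2 units) for each of the 9 genes (rows), with arrays grouped as the BRI1 line, the arrays labelled 35S::AVP1 and wild type. BRI1 line replicate 2, replicate 3 labelled 35S::AVP1 and wild type replicate 3 are mostly blue, and PAR1 is red in BRI1 line replicate 2.

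The wider set of helix-loop-helix proteins without DNA binding held 12 listed genes, of which 8 were measured. Of these, 0 of 8 were called in the BRI1 line against wild type, against 0.0818% of all loci. At an unadjusted p under 0.05 it was 1 of 8, against 5.3% of all loci. The median was 0.13 against -0.01 for all loci. PRE2, a paralog of PRE1, had the lowest p, at 0.49 (limma adjusted p = 0.797), and IBL1, a paralog of IBH1, followed at 0.18 (0.956). With the label 35S::AVP1, IBL1 rose by 0.47 (limma adjusted p = 0.0117), with levels of 7.46, 7.56 and 7.31 there against 7.09, 6.80 and 7.04 in wild type. It was the 1 of 8 that was called, a share near the 11.1% of all loci, and its direction was opposite to that of IBH1. PRE2 stood at 0.39 (limma adjusted p = 0.190). Between the lines 0 of 8 were called, against 10.3% of all loci, and 1 had an unadjusted p under 0.05, against 23.9%. The lowest p was that of IBL1 (-0.29, limma adjusted p = 0.0907), which was called with array weights (-0.32, adjusted p = 0.0463). HFR1, a repressor of shade growth, followed at 0.34 (limma adjusted p = 0.599). It was 0.09 without BRI1 line replicate 1 and 0.06 without replicate 3 labelled 35S::AVP1, and 0.61 without BRI1 line replicate 2 and 0.54 without replicate 1 labelled 35S::AVP1.

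Of 14 listed DNA-binding growth bHLH factors, 12 were measured. The BRI1 line had 0 of 12 called against wild type, against 0.0818% of all loci. At an unadjusted p under 0.05 it was 1 of 12, against 5.3% of all loci, and the median was 0.00. The lowest p belonged to CIB3 (-0.33, limma adjusted p = 0.839) of the cryptochrome-interacting bHLH group. With the label 35S::AVP1, the call count was 3 higher and 0 lower of 12, against 6.31% and 4.76% of all loci. These were CIB5 (0.78, limma adjusted p = 0.0186), a relative of CIB3, and the phytochrome-interacting factors PIF1 (0.49, limma adjusted p = 0.0199) and PIF3 (0.43, limma adjusted p = 0.00704), which light receptors mark for destruction. CIB5 gave 6.23, 5.48 and 6.06 in these arrays against 5.34, 5.10 and 4.99 in wild type, without overlap. The PIF3 call held without any 1 of the 9 arrays. The CIB5 call was lost without replicate 1 or 3 labelled 35S::AVP1 or wild type replicate 2 or 3 (adjusted p up to 0.0669), and the PIF1 call without replicate 1 or 2 of that label or wild type replicate 2 or 3 (up to 0.0776). Between the lines 3 of 12 were called, against 10.3% of all loci (4.05% higher and 6.27% lower). They were the same 3 genes, lower in the BRI1 line than in the arrays labelled 35S::AVP1. The log2 differences were -0.83 for CIB5, -0.43 for PIF1 and -0.34 for PIF3 (limma adjusted p = 0.0143, 0.0355 and 0.0227). Between the lines the CIB5 call was lost without BRI1 line replicate 2 or replicate 1 or 3 labelled 35S::AVP1. The PIF3 and PIF1 calls were lost without any BRI1 line replicate or replicate 1 or 2 labelled 35S::AVP1, and that of PIF1 also without wild type replicate 2 (adjusted p up to 0.135) and with median centring (-0.38, adjusted p = 0.0591).

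Of 18 other SAUR genes listed, 12 were measured. None was called in the BRI1 line, 0 of 12 against 0.0818% of all loci. At an unadjusted p under 0.05 there were 4 of 12, against 5.3% of all loci, with 10 positive and 2 negative differences and a median of 0.14 against -0.01 for all loci. SAUR23 had the lowest p in the BRI1 line, at 0.73 (95% interval 0.32 to 1.14; limma adjusted p = 0.484). SAUR14, the chromosomal neighbour of SAUR15, stood at 0.58 (limma adjusted p = 0.604), with levels of 10.46, 10.22 and 10.48 in the BRI1 line against 9.39, 9.89 and 10.13 in wild type. With the label 35S::AVP1, SAUR23 rose by 1.05 (limma adjusted p = 0.00502), at 8.65, 8.35 and 8.31 against 7.21, 7.68 and 7.26 in wild type, and this call held without any 1 of the 9 arrays. SAUR10 rose by 0.54 (limma adjusted p = 0.0331), a call lost without 6 of the 9 arrays, namely BRI1 line replicate 3, replicate 1 or 3 labelled 35S::AVP1 and any wild type replicate (adjusted p up to 0.108). It was also lost with quantile normalization (0.48, adjusted p = 0.0726). SAUR10 gave 4.76, 4.28 and 4.47 in the arrays labelled 35S::AVP1 against 3.84, 4.08 and 3.97 in wild type. The wild type levels were near the 10th percentile of the arrays, and SAUR10 did not pass the filter on dim loci. SAUR23 and SAUR10 were the 2 of 12 called, against 11.1% of all loci. SAUR23 has near-identical relatives, SAUR19 to SAUR24, of which no other was among the measured loci, and whether its probes also read them was not tested. Between the lines 0 of 12 were called, against 10.3% of all loci, and 2 of 12 had an unadjusted p under 0.05, against 23.9%: SAUR1 at 0.47 (limma adjusted p = 0.0990) and SAUR68 at 0.30 (limma adjusted p = 0.206).

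Of 23 listed condensing enzymes and core elongase subunits, 21 were measured, and in the arrays labelled 35S::AVP1 4 fell and 1 rose, where KCS1 rose. KCS5, an enzyme of wax chains, fell by 0.88 (SE 0.09, 1.83-fold lower; limma adjusted p = 0.000116), at 9.17, 9.06 and 9.16 against 9.88, 9.97 and 10.17 in wild type. KCS8 fell by 0.55 (limma adjusted p = 0.00319) and KCS20, which acts with KCS2 in root suberin and wax synthesis, by 0.55 (limma adjusted p = 0.00333). PAS2, the dehydratase of the elongase, fell by 0.28 (limma adjusted p = 0.0269), and CER10, its enoyl-CoA reductase, rose by 0.32 (limma adjusted p = 0.0362; named after its values were seen). The calls of KCS5, KCS8 and KCS20 held without any 1 of the 9 arrays. PAS2 was lost without any replicate labelled 35S::AVP1 or wild type replicate 2 or 3 (adjusted p up to 0.0973), and CER10 without every array but wild type replicate 3 (up to 0.126). With only the 2 groups compared in the fit, both were lost (PAS2 adjusted p = 0.0682, CER10 adjusted p = 0.0828), and CER10 also with median centring (0.0890). The 5 called of 21 compare with 11.1% of all loci, and the median of the list was -0.05 against 0.05.

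Of these 21 genes 0 were called in the BRI1 line against wild type, against 0.0818% of all loci. At an unadjusted p under 0.05 it was 1 of 21, against 5.3% of all loci. The lowest p belonged to KCS5 (-0.20, limma adjusted p = 0.921) and KCS12 (-0.23, limma adjusted p = 0.950). Between the lines 4 were higher in the BRI1 line and 0 lower, against 4.05% of all loci called higher: KCS5 (0.67), KCS20 (0.53), KCS8 (0.39) and PAS2 (0.27), with limma adjusted p from 0.000700 to 0.0329. KCS1 was thus lower in the BRI1 line than in the arrays labelled 35S::AVP1 and these 4 were higher. Without any 1 array the KCS5 and KCS20 calls held. The KCS8 call was lost without BRI1 line replicate 2 or 3 or replicate 1 or 2 labelled 35S::AVP1 (adjusted p up to 0.0900), and the PAS2 call without any of the 6 arrays compared (up to 0.115).

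**Figure D4:**
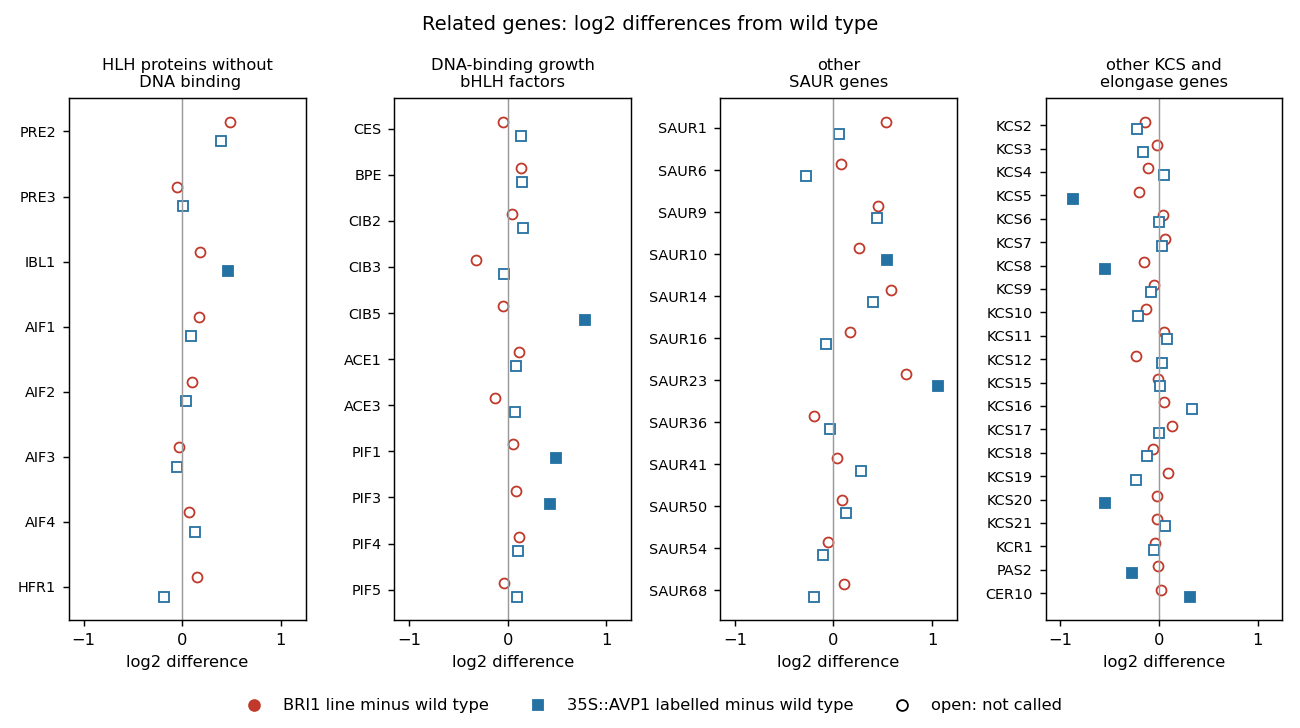
log2 difference from wild type (horizontal axis) of the measured genes of 4 related lists (1 gene not shown), with circles for the BRI1 line and squares for the arrays labelled 35S::AVP1; filled symbols were called by limma. No circle is filled, and filled squares include SAUR23 and CIB5 on the right and KCS5 on the left.

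Some markers of other organs also moved, in the arrays labelled 35S::AVP1 beside the values of IBH1, PAR1 and KCS1. The mean level of 5 floral markers was 4.4 to 4.69 there and 3.94 to 4.01 in wild type, with 2 of 5 called, against 11.1% of all loci: SEP3 rose by 1.80 (limma adjusted p = 2.33e-05) and AG by 0.57 (limma adjusted p = 0.00472). AG averaged 3.96 in the arrays labelled 35S::AVP1 and 3.39 in wild type, AP3 4.05 and 3.77, and AP1 3.93 and 3.87. These levels were at or near the 10th percentile of the arrays. The 3 floral markers not called stood at 0.28 (AP3, limma adjusted p = 0.140), 0.06 (AP1, 0.702) and 0.05 (PI, 0.752). Of 5 root markers, 1 was called, against the same 11.1%: PYK10, a glucosidase of endoplasmic reticulum bodies, rose by 0.86 (limma adjusted p = 0.000698), and the mean level of the list was 6.90 to 6.93 against 6.71 to 6.76 in wild type. The other root markers stood between -0.08 (SHR) and 0.09 (PLT1), and the list's median of 0.04 compares with 0.05 over all loci. Between the lines, the same floral count was 2 of 5, both lower in the BRI1 line, against 10.3% of all loci. The BRI1 line had a floral mean of 3.84 to 3.94 and a root mean of 6.83 to 6.90. Against wild type, 0 of 5 markers of each list were called in the BRI1 line, against 0.0818% of all loci. There PYK10 stood at 0.68 (limma adjusted p = 0.0902) and SEP3 at -0.47 (limma adjusted p = 0.636), beside the values of BEE1, BEE3 and SAUR15. Each was the 1 of 5 in its list without overlap, against 10.1% of all loci. Other root markers lay between -0.18 (SHR) and 0.09 (PLT1), and other floral markers between -0.06 (AP3) and 0.05 (AP1). The part of these organs in the results on the 9 genes was not tested.

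In gene order, PAR1 and IBH1 lie near each other on chromosome 2, with 17 measured loci between them, and 4 measured loci lie between PIF4 and IBH1. The loci around them were examined in the arrays labelled 35S::AVP1 because both repressors fell. Of the 20 measured loci nearest to IBH1, 1 was called against wild type, and of the 20 nearest to PAR1, 1. Around KCS1 it was 1 of 20, and around the other 6 genes 2 to 4 of 20, against 11.1% of all loci.

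The patterns most like those of the 3 widest-ranging genes were sought by the root mean square difference over the 9 arrays, after each locus was centred on its own mean. For PRE1, whose own root mean square deviation was 0.57, the nearest loci were the sucrose transporter gene SUC5 (0.16), AT2G04795 (0.19) and the heat-stress gene HSA32 (0.23). SUC5 averaged 4.99 in the BRI1 line, 5.91 in the arrays labelled 35S::AVP1 and 5.24 in wild type. For BEE1 (0.39) they were AT5G17780 (0.18), AT4G34560 (0.19) and AT1G26930 (0.19), the last at 5.58 in the BRI1 line, 4.98 in the arrays labelled 35S::AVP1 and 4.98 in wild type. For PAR1 (0.39) they were AT4G27390 (0.12), AT5G05890 (0.13) and FLDH (0.14), which averaged 7.53 in the BRI1 line, 6.86 in the arrays labelled 35S::AVP1 and 7.61 in wild type. None of these 9 loci was another of the studied genes.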

How the data were processed

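The deposited values are log2 levels from RMA, per the submitters' processing notes. Neither its version nor the map from probes to loci was found in the labels. The table has 1 value per locus and array, 20777 loci by 9 arrays, without counts or detection calls, and precision is limited by how few arrays there are. No arrays held identical values. All loci were fitted with limma 3.58.1 in R 4.3.3, each genotype having its own mean, with 6 residual and 3.94 prior degrees of freedom. Benjamini-Hochberg adjustment ran over every locus of a contrast, and calls were made under 0.05. The fit was tested on simulated data. Names and gene order came from RefSeq's TAIR10.1 gene table, which held 20508 of the loci. The 9 genes, the 4 lists of related genes and the shoot, root and floral markers were chosen with earlier results of these data known. All 9 genes are named, and from each list the called genes (up to 4, by lowest p) or otherwise the 2 with the lowest p. 1 gene that this rule names is not reported here. Replicate numbers were not used as pairs: no label ties a number to a batch. Alternatives changed the normalization, the filter on dim loci (mean above the 25th percentile), the variance prior, array weights, the replicate block and the arrays fitted. Those for the related genes were added after seeing the data.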

Additional observations from a re-analysis of the deposited data

How the results depend on the processing

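In the comparison of the BRI1 line with wild type, 0 of the 9 genes were called under all 16 alternatives. The share of all loci called there was 0.0144% to 0.135%. In the arrays labelled 35S::AVP1 against wild type the count stayed between 2 and 4, with PAR1 among the called genes each time. The share of all loci called in that comparison ran from 7.55% to 14.4%. Between the lines it was 4 under the other alternatives and 2 to 4 without each array in turn. It was 2 without BRI1 line replicate 2 or 3 or replicate 1 or 2 labelled 35S::AVP1. Of all loci, 6.25% to 7.84% were called between the lines in those settings, in a range of 6.25% to 13.7% over the alternatives. With the replicate block the counts were 0, 4 and 4, against 0.111%, 12.5% and 11.5% of all loci. The block added PRE1 in the arrays labelled 35S::AVP1 (adjusted p = 0.00761), as did array weights (0.85, adjusted p = 0.0446). Among the related genes the block added SAUR1 between the lines (0.47, adjusted p = 0.0468), and it changed no other call of a named gene. Deviations of same-numbered arrays correlated at 0.02 to 0.48, above 0.1 in 5 of 9 pairs. Arrays correlated best with their own number in 13 of 18 sets, a hint from the data and not the design. Pairs with unlike numbers ran from -0.50 to 0.49. The highest value of all was that of wild type replicate 3 with BRI1 line replicate 2. Some differences near 0 changed sign and were not called under any alternative. Without each array in turn, for the BRI1 line against wild type, HBI1 ranged from -0.22 to 0.026, PAR1 from -0.24 to 0.018 and KCS1 from -0.092 to 0.033. For the arrays labelled 35S::AVP1 against wild type, BEE1 ranged from -0.19 to 0.098, BEE2 from -0.12 to 0.038, BEE3 from -0.0066 to 0.26 and HBI1 from -0.17 to 0.079. Between the lines HBI1 ranged from -0.17 to 0.020. With array weights BEE2 was 0.037 and HBI1 0.00936 in the arrays labelled 35S::AVP1, and with median centring HBI1 was 0.0046 between the lines. The causes were not tested. Of all loci, 17 were called in the BRI1 line (3 to 28 under the alternatives). Of called loci, 47.1% were higher in the BRI1 line, 57.0% in the arrays labelled 35S::AVP1 and 39.2% between the lines, and with median centring 64.7%, 47.3% and 56.4%. With quantile normalization they were 64.3%, 49.1% and 52.4%. All 9 genes passed the filter on dim loci.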

Other observations

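SAUR14, SAUR15 and SAUR16 lie next to one another on chromosome 4, and their log2 differences from wild type in the BRI1 line were 0.58, 0.52 and 0.17. In the arrays labelled 35S::AVP1 they were 0.40, 0.30 and -0.07. None of these was called (limma adjusted p 0.354 or higher in the BRI1 line and 0.154 or higher in the arrays labelled 35S::AVP1). SAUR16 was chosen for naming after its values were seen.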
